A study of Homo sapiens with 6 samples.

Results

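The 6 chains of type IV collagen (Col4a1 to Col4a6) were followed in MOC2, a line of mouse oral squamous carcinoma cells, with and without CRISPR/Cas9 targeting of Elavl1, the gene for HuR. The HuR protein attaches to AU-rich stretches of mRNA and is known to stabilise many of its targets. The members were taken by gene symbol: all 6 of 6 chains had a row among the 21872 gene symbols of the count table. Control libraries 1 to 3 came from cells transduced with lentivirus for a control CRISPR/Cas9, and knockout libraries 1 to 3 from cells given the HuR virus; both were grown in DMEM with fetal bovine serum and antibiotics. The genotype label says knockout and the titles say KD. The treatment text says that a single clone was isolated, so loss of HuR and differences between clones cannot be told apart. Nothing says that the libraries of a group came from separate clones or cultures, so p-values here reflect how these libraries vary, which may be technical variation. The species label is human, but the gene symbols and the series title are those of mouse. The chains were chosen by name with no threshold, and the only measured value the rule used is a 0 in control library 1, which selected the row of Col4a6 for division by 11. The family was picked with earlier results of this comparison known, so its fold changes are a description and no independent support.

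Type IV collagen is the network-forming collagen of basement membranes, the sheets of matrix under epithelia and around vessels. Its chains assemble inside the cell into trimers of set makeup (α1α1α2, α3α4α5 and α5α5α6), which join outside the cell through their C-terminal NC1 domains. The genes lie in 3 head-to-head pairs, Col4a1 with Col4a2, Col4a3 with Col4a4 and Col4a5 with Col4a6, each pair with its start sites close together. The α1α1α2 trimer is found in nearly all basement membranes, α3α4α5 is known best from the kidney glomerulus, lung and inner ear, and α5α5α6 from skin, oesophagus and smooth muscle. Inherited defects of α3, α4 or α5 cause Alport syndrome.

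The libraries held 16158516 to 21294330 counts each. Knockout library 3 stood apart from the other knockout libraries, with which its log2 CPM correlated across genes at 0.924 and 0.931, against 0.978 between knockout libraries 1 and 2. Elavl1 mRNA was at 107, 120 and 117 CPM (counts scaled to a common library total, adjusted by TMM) in control against 116, 114 and 105 CPM in knockout, and its level checks nothing about the edit or the protein. The 15 epithelial markers summed to 12070 to 14946 CPM in control against 5941 to 8788 CPM in knockout, where 9 of the 14 tested were lower and 1 was higher. The higher one, Trp63, the squamous lineage factor and a row divided by 11, had no count in any control library, against the squamous label, and 28, 92 and 258 counts in knockout. It was at least 133-fold higher in knockout (floor of 3 counts over the control group), and at least 84.2-fold, 86.5-fold or 60-fold without control library 1, control library 2 or knockout library 3. Among the epithelial markers called lower, Krt8 lost its call without control library 1 or 2. Krt14 and Dsp gained a call of lower without knockout library 1, and Krt19 gained a call of higher without knockout library 3. Of 15 fibroblast markers, 7 of the 8 tested were higher in knockout, and their sum was 5.1 to 13.4 CPM in control against 3792 to 7875 CPM in knockout. Markers with hardly any counts in control, such as Pdgfrb (2 against 2109 in knockout), were tested only by virtue of the knockout group. For these a call of higher was nearly fixed in advance. Lum had no count in any library, and Col1a2, Dcn, Thy1, Postn, Fap and Dpt stayed under 1 CPM throughout. Of 14 endothelial markers, 4 were tested and 3 were higher (summed level 21.1 to 34.4 CPM in control against 179.6 to 271 CPM in knockout), while Pecam1, Cdh5, Kdr and Tek stayed under 1 CPM and Cldn5 and Sox17 were at 0 in every library. The call of Eng was lost when any 1 of the control libraries was left out. Of 9 smooth muscle and pericyte markers, 4 were tested and 3 were higher (summed level 6.68 to 13 CPM in control and 90.1 to 176 CPM in knockout), while Acta2, Myh11, Cnn1, Tagln and Rgs5 stayed under 1 CPM in every library. Des lost its call without control library 3 and Cspg4 without control library 2. The share called was 71.4% of the tested epithelial, 87.5% of the fibroblast and 75% of the endothelial markers. It was also 75% for the smooth muscle and pericyte markers, beside 35.7% of all genes tested (20.3% higher and 15.4% lower). These markers moved with the results below, and their part in them was not tested. In bulk RNA, fewer cells of a type and less RNA per cell cannot be told apart.

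Over the family, Col4a3 and Col4a4 were lost or nearly lost in knockout, Col4a5 rose about 4-fold, Col4a1 and Col4a2 did not differ detectably between the groups, and Col4a6 was near 0 in every library. Counts of 5 chains were sufficient for the test of knockout against control (edgeR's quasi-likelihood test over 12293 genes, Benjamini-Hochberg adjusted p under 0.05 called a change), and Col4a6 was not tested. Of the 5, 1 was called higher and 2 lower, beside 35.7% of all genes tested called in either direction, 20.3% higher and 15.4% lower. The 2 lower, Col4a3 and Col4a4, held hardly any counts in knockout and were tested only by virtue of the control group. For these 2 a call of lower was nearly fixed in advance. The CPM of the groups did not overlap for the 3 called chains, as for 57.6% of all genes tested (29.7% higher and 27.9% lower in knockout).

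**Figure D1:**
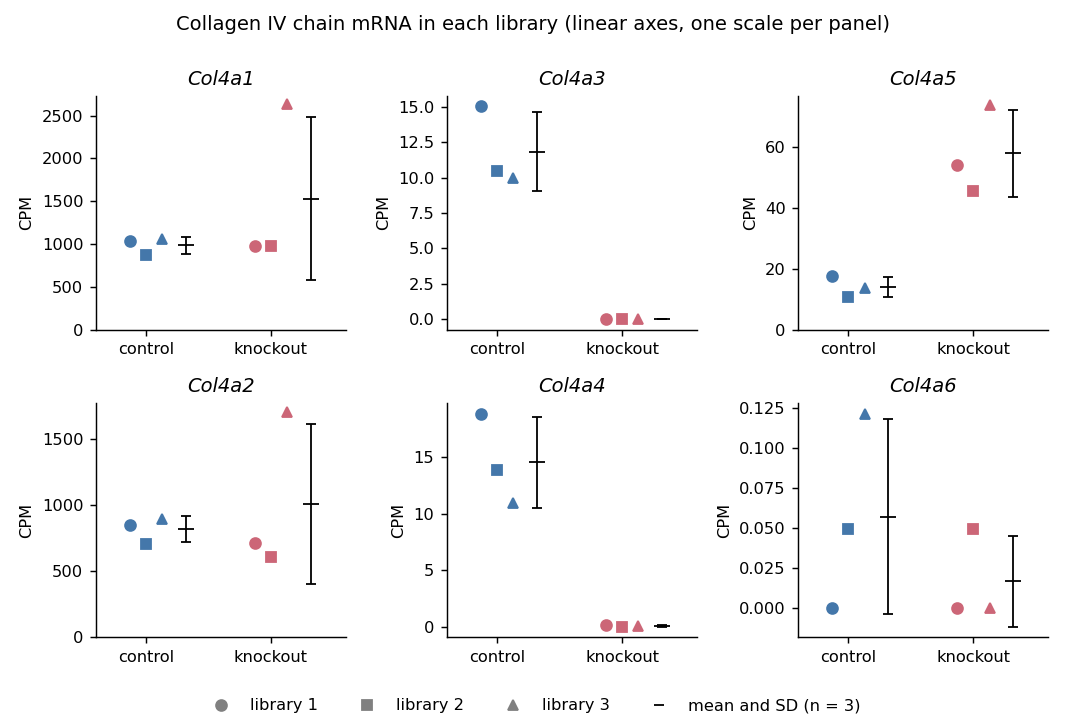
CPM of each collagen IV chain (linear y axes, a separate scale per panel) in the 3 control and 3 knockout libraries; bars are the mean and SD of each group, and the symbol gives the library number. Col4a3 and Col4a4 lie at or near 0 in all knockout libraries, Col4a5 lies higher in all of them, and Col4a1 and Col4a2 are high in knockout library 3 alone; the Col4a6 points stand for 0, 1 or 2 counts.

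Col4a1, which encodes the α1 chain of the common trimer, was at 1034, 869 and 1053.5 CPM in control libraries 1 to 3 and at 980, 982 and 2631 CPM in knockout libraries 1 to 3. Knockout libraries 1 and 2 lay within the control range, and knockout library 3 was 2.68 times their mean. The group means were 986 ± 101 CPM in control against 1531 ± 953 CPM in knockout (SD, n = 3 each). The log2 fold change was 0.64 (SE 0.405, adjusted p = 0.262 by edgeR), and its 95% interval reached from -0.33 to 1.61, that is from 0.793-fold to 3.04-fold. Without knockout library 3 it was -0.00505 (adjusted p = 0.972 by edgeR).

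Col4a2, the partner gene that supplies the α2 chain, was at 853, 707 and 895 CPM in control against 712, 612 and 1710 CPM in knockout. Knockout library 2 was below every control library, knockout library 1 lay within their range, and knockout library 3 was above them all, at 2.58 times the mean of the other knockout libraries. The log2 fold change of 0.31 (SE 0.395) had a 95% interval of -0.64 to 1.25 and was not called (adjusted p = 0.576 by edgeR). Without knockout library 3 its sign turned, to -0.30, with an adjusted p of 0.0687 by edgeR.

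**Figure D2:**
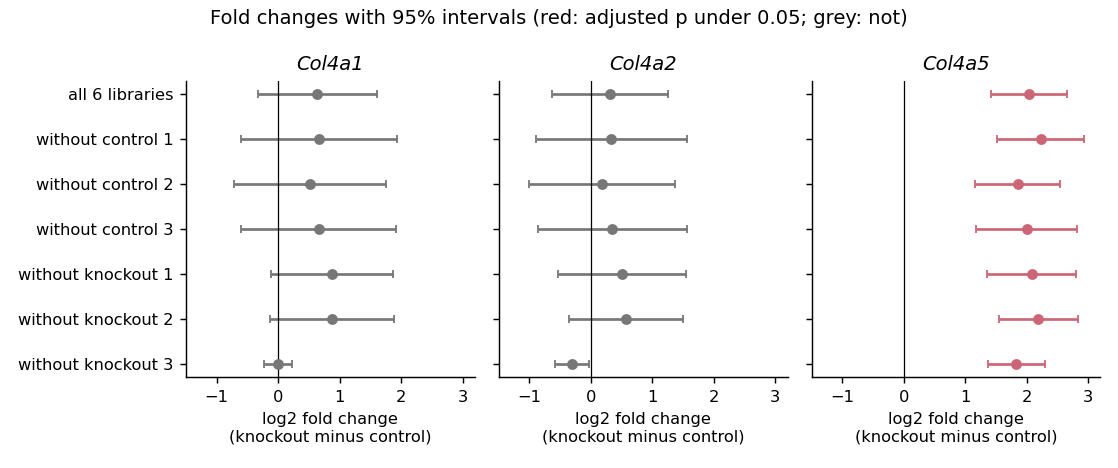
Log2 fold change of knockout minus control for Col4a1, Col4a2 and Col4a5 (x axis) with all 6 libraries and with each library left out (y axis); bars are 95% intervals, and red marks an adjusted p under 0.05. Without knockout library 3 the values for Col4a1 and Col4a2 are -0.00505 and -0.30, while Col4a5 stays between 1.83 and 2.23 in every row.

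Both genes of the common trimer were thus highest in knockout library 3, while between knockout libraries 1 and 2 Col4a1 was level and Col4a2 was not. To compare levels between chains, CPM were divided by the coding length of the human orthologue, 5.01 to 5.14 kb, since no mouse gene model was used here. On this scale Col4a1 stood at 1.24, 1.26 and 1.21 times Col4a2 in control libraries 1 to 3 and at 1.41, 1.65 and 1.58 times in knockout libraries 1 to 3. The means of this ratio were 1.24 ± 0.0272 in control and 1.55 ± 0.121 in knockout (SD, n = 3 each). The groups did not overlap, but the ratio was not tested, and the CPM of the groups did not overlap for 57.6% of all genes tested. Knockout library 3 fell between the other knockout libraries in this ratio, although its levels of both chains were the highest. Leaving out any 1 knockout library kept the knockout mean between 1.49 and 1.61.

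Col4a3, which encodes the α3 chain and its NC1 domain, the Goodpasture autoantigen, was at 15.1, 10.5 and 9.96 CPM in control against 0 in all 3 knockout libraries. These rest on 322, 214 and 164 counts in control and on none in knockout, where a count of 0 allows at most 0.163, 0.147 and 0.184 CPM in libraries 1, 2 and 3 (3 counts, counting error only). Summed over each group, 700 counts against 0 made Col4a3 at least 221-fold lower in knockout (floor of 3 counts over the group; adjusted p = 0.000754 by edgeR). Since Col4a3 was tested only by virtue of the control group, this call was nearly fixed in advance. Without knockout library 1 or 2 the bound was 147-fold or 139-fold, since the remaining knockout total is smaller.

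Col4a4, its head-to-head partner and the source of the α4 chain, was at 18.9, 13.8 and 10.9 CPM in control against 0.163, 0 and 0.0612 CPM in knockout. Every control library lay far above every knockout library. The knockout group held 4 counts in all (3, 0 and 1) against 865 in control, a level 205 times lower with an exact 95% counting interval of 79.7 to 753. The fitted log2 fold change was -7.51 (SE 0.648, adjusted p = 0.00064 by edgeR). Without knockout library 1, which held 3 of the 4 counts, the ratio was 546 (97.8 to 21595), and without knockout library 2 it was 129 (50.2 to 474).

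In control the 2 partners were at similar levels, with Col4a3 at 0.809, 0.768 and 0.922 times Col4a4 per coding kilobase in libraries 1 to 3. Control library 1 was highest for both and control library 3 lowest for both. The fit called both lower under all 15 alternatives run, with adjusted p up to 0.00723 for Col4a3 and 0.00575 for Col4a4 by edgeR. With hardly any knockout counts in any of these fits, the calls were nearly fixed in advance, and their agreement is no added support.

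Col4a5, whose α5 chain takes part in both α3α4α5 and α5α5α6 trimers, was at 17.6, 10.8 and 13.8 CPM in control against 54.4, 45.7 and 73.9 CPM in knockout. All knockout libraries were above all control libraries, including knockout libraries 1 and 2, where Col4a1 and Col4a2 were not raised. The means were 14.1 ± 3.38 and 58 ± 14.4 CPM (SD, n = 3 each), a 4.12-fold rise with an interval of 2.69-fold to 6.31-fold (log2 2.04, SE 0.257, adjusted p = 0.00206 by edgeR). The mean of knockout libraries 1 and 2 alone was 3.56 times the control mean. Under the 15 alternatives the log2 value ranged from 1.83 to 2.23 and the highest adjusted p by edgeR was 0.0161.

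Col4a6, the head-to-head partner of Col4a5 and the source of the α6 chain, was deposited as 0, 11 and 22 counts in control and 0, 11 and 0 in knockout. After division by 11 it held 0, 1 and 2 counts in control and 0, 1 and 0 in knockout, at most 0.121 CPM. Both groups were at or under 3 counts, so no fold is given, and a difference was not detectable at this depth. Of the chains that could pair with α5, α3 and α4 mRNA was thus at or near 0 in knockout and α6 mRNA at or near 0 in both groups, while the α5 mRNA itself was higher. With the values as deposited Col4a6 entered the test and was not called (adjusted p = 0.48 by edgeR).

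The levels per coding kilobase had the same order in all 3 control libraries for the common chains, with Col4a1 above Col4a2 and both far above the rest. Among the minor chains of control, the means were 2.87 ± 0.79 for Col4a4, 2.77 ± 0.666 for Col4a5 and 2.36 ± 0.559 CPM per kilobase for Col4a3. Col4a6 was at 0.0111 ± 0.0119 (SD, n = 3). Within each control library Col4a3 was below Col4a4 and Col4a5, while Col4a5 was at 0.932, 0.783 and 1.26 times Col4a4 in libraries 1 to 3. In knockout the order was Col4a1 (306 ± 190), Col4a2 (197 ± 118) and Col4a5 (11.4 ± 2.84); Col4a3, Col4a4 and Col4a6 held at most 3 counts in any knockout library and cannot be ranked. Col4a1 and Col4a2 made up 97.3% to 98.2% of the summed collagen IV level in control and 96.9% to 98.3% in knockout. Col4a3 and Col4a4 together made up 1.76%, 1.52% and 1.06% in control and at most 0.00934% in knockout. The share of Col4a5 was 0.906%, 0.672% and 0.694% in control and 3.11%, 2.78% and 1.67% in knockout, lowest in knockout library 3, where the common chains were highest. The summed CPM of all chains was 1938, 1611 and 1983 in control and 1746, 1640 and 4415 in knockout, so that knockout libraries 1 and 2 lay within the control range.

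**Figure D3:**
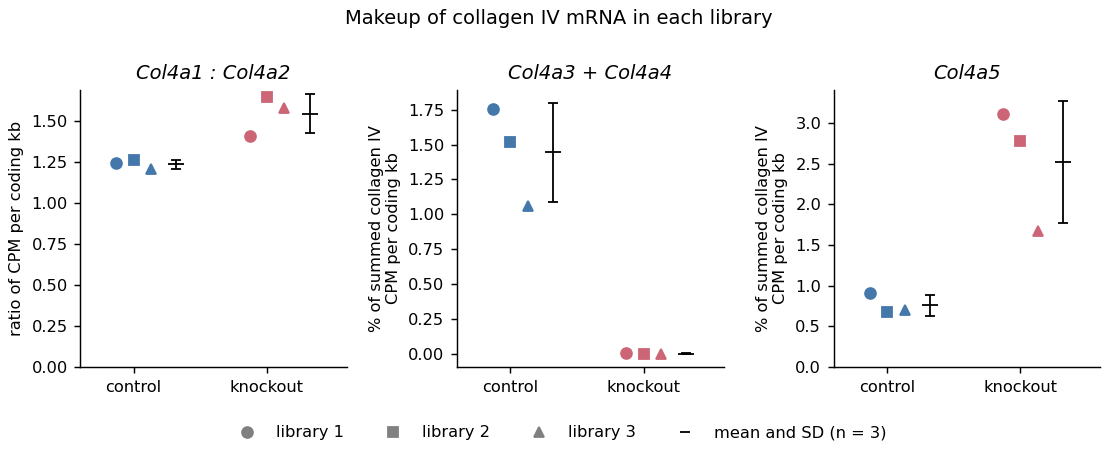
Ratio of Col4a1 to Col4a2 (left) and the share of Col4a3 plus Col4a4 (middle) and of Col4a5 (right) in the summed collagen IV level, all from CPM per kilobase of coding sequence of the human orthologue, in each library; bars are the mean and SD of each group of 3. The groups do not overlap in any panel: the ratio is 1.21 to 1.26 in control and 1.41 to 1.65 in knockout. No test was run on these values, and the CPM of the groups did not overlap for 57.6% of all genes tested.

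The 10289 tested genes whose mean CPM was 5 or more were ranked by Pearson's r with each chain over the 6 libraries, as a description. Ampd3 (r = 0.998), Gcnt2 (0.996) and Zfp36l1 (0.994) were nearest to Col4a1, and Gpbp1l1 (0.994), Mroh1 (0.993) and Tab2 (0.991) to Col4a2; these 6 genes were not called between the groups. Each was highest in knockout library 3, as Col4a1 and Col4a2 were, and their log2 fold changes without that library lay between -0.18 and -0.02. Esm1, Fam13b and Fam107b were nearest to Col4a3 and Unc13d, Il23a and Prkch to Col4a4, and Cep131, Hpse and Cyp2d22 to Col4a5 (r of 0.998 or 0.999 for these 9). Those nearest to Col4a3 and Col4a4 were all called lower, and those nearest to Col4a5 higher. For these 9, r mostly reflects the split between the groups, whatever its size. Fam13b fell only 1.42-fold, from 26.7 to 18.8 CPM, and lost its call when any 1 of the control libraries was left out. Hpse encodes heparanase, which cuts the heparan sulfate chains of basement membrane proteoglycans, and was at 13.6 ± 2.5 CPM in control against 50.8 ± 10.8 CPM in knockout (SD, n = 3 each).

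The neighbours of the pairs were taken from the human gene order (RefSeq, GRCh38.p14), in which no other protein-coding gene lies between the partners of a pair; mouse gene order was not used here. Beside Col4a1 and Col4a2, Irs2, an adaptor of insulin signalling, was at 21 ± 3.97 CPM in control against 143 ± 61.1 CPM in knockout (adjusted p = 0.00173 by edgeR), and Myo16 at 0.067 and 3.16 CPM (adjusted p = 0.00765 by edgeR, log2 fold change 5.41, and 6.53 without control library 1 or 4.81 without control library 2). Myo16 held only 3, 0 and 1 counts in control against 74, 94 and 14 in knockout. It was tested only by virtue of the knockout group, so its call was nearly fixed in advance. Rab20, Naxd and Cars2 were not called, and Tnfsf13b was not tested. Beside Col4a3 and Col4a4, Agfg1 was lower (120.1 ± 7.32 and 69.9 ± 11.8 CPM, adjusted p = 0.00945 by edgeR), while Rhbdd1, Irs1 and Mff were not called. Mff, next to Col4a3 in that order, was at 56.8 ± 1.08 CPM in control against 62.6 ± 3.38 CPM in knockout, and Rhbdd1, next to Col4a4, at 58.3 ± 2.46 and 70.4 ± 33.9 CPM (SD, n = 3 each). Irs1 was at 25.2 ± 4.27 CPM in control against 22.5 ± 5.01 CPM in knockout. Why Col4a3 and Col4a4 were lost or nearly lost was not tested. Beside Col4a5 and Col4a6, Atg4a was 1.85-fold higher (adjusted p = 0.00748 by edgeR), Psmd10 and Nxt2 were not called, and Vsig1, Irs4 and Gucy2f were not tested.

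The genes that act on collagen IV were then examined by list, each counted in the fit over all genes, where the median log2 fold change was 0.0302. Genes with hardly any counts in 1 group were tested only by virtue of the other group, which limits what a list's numbers show. Of 23 genes of procollagen folding and modification, 21 were tested, and 15 were higher, 0 lower and 6 not called, with a median log2 fold change of 1.15; 71.4% were called, beside 35.7% of all genes tested. These enzymes and chaperones hydroxylate prolines and lysines and hold the triple helix in the endoplasmic reticulum. P4ha3, a catalytic subunit of prolyl 4-hydroxylase, rose from 0.718 ± 0.28 to 70.6 ± 29 CPM. P3h3 and P3h1, of the prolyl 3-hydroxylase family, rose 5.88-fold and 2.73-fold (adjusted p = 0.000713 and 0.00094 by edgeR; SE 0.229 and 0.145 on the log2 scale). Serpinh1, the collagen chaperone HSP47, was picked after its values were seen; it was at 79.6, 58.6 and 65.2 CPM in control against 356, 325 and 229 CPM in knockout. Across the 15 alternatives 13 to 16 members were higher and 0 lower.

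Of 17 genes of procollagen export, all were tested, and 5 were higher, 0 lower and 12 not called, with a median of 0.34; the share called was 29.4%, against 35.7% of all genes tested. Mia3, the cargo receptor TANGO1 that loads procollagen into large carriers, rose 1.78-fold, from 91.7 ± 8.6 to 163 ± 24 CPM (adjusted p = 0.00754 by edgeR). Sec24d, a COPII coat subunit, rose 1.57-fold (adjusted p = 0.00701 by edgeR, and 0.0523 without control library 2). Sparc, a matricellular protein that binds collagen IV and has been linked to its secretion, rose 29.7-fold, from 48.7 ± 12.4 to 1444 ± 155 CPM. The number higher was 3, 2 and 3 without control library 1, 2 or 3, and 3 without knockout library 2.

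Of 8 genes of network crosslinking, 7 had a row and 6 were tested; 1 was higher, 1 lower and 4 not called, a share called of 33.3%, close to the 35.7% of all genes tested. Loxl3, a lysyl oxidase-like enzyme, rose 112-fold, from 1.33 ± 0.7 to 149.5 ± 25.1 CPM (SD, n = 3 each). Lox held 159 counts in control and 1 in knockout, 151 times lower with a counting interval of 26.6 to 5983 (adjusted p = 0.0035 by edgeR); the ratio was 91.3 without control library 1, and the level at least 31.6-fold lower without knockout library 2. Pxdn, the peroxidasin that makes the sulfilimine bonds between collagen IV NC1 domains, was picked for this role; it was at 187, 197 and 237 CPM in control against 168, 175 and 103 CPM in knockout (adjusted p = 0.147 by edgeR). Loxl2, which also crosslinks collagen IV, was not tested and stayed under 1 CPM in every library.

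Of 33 other basement membrane components, 24 were tested; 8 were higher, 6 lower and 10 not called, with a median of -0.23 and a share called of 58.3% (35.7% of all genes tested). Col15a1, a basement membrane collagen of the multiplexin family, rose from 0.167 ± 0.0993 to 27 ± 8.96 CPM, 152-fold, and 232-fold without control library 1. Col7a1, the collagen of anchoring fibrils, fell 4-fold, from 130 ± 2.91 to 32.5 ± 9.74 CPM (adjusted p = 0.00139 by edgeR). The number higher was 4 without control library 2 or control library 3.

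Of 15 collagen IV receptors, 13 were tested; 6 were higher, 4 lower and 3 not called, with a median of 0.0021 and a share called of 76.9% (35.7% of all genes tested). Itga1 and Itga2 encode the integrin α1 and α2 subunits, the collagen-binding partners of the β1 subunit. Itga2 fell 124-fold, from 218, 182 and 219 CPM in control to 2.89, 0.833 and 1.29 CPM in knockout (196-fold without knockout library 1), while Itga1 rose 51.2-fold, from 0.394 ± 0.0857 to 20.6 ± 6.39 CPM. The β1 subunit gene Itgb1, given here for that pairing, was at 1079, 1171 and 1091 CPM in control against 1012, 1034 and 1300 CPM in knockout (adjusted p = 0.992 by edgeR). Ddr2, a collagen receptor tyrosine kinase, rose from 0.53 ± 0.176 to 83.2 ± 13 CPM (adjusted p = 0.000205 by edgeR). When any 1 of the control libraries was left out, 4 receptors were higher, since Ddr1 and Dag1 lost their calls.

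**Figure D4:**
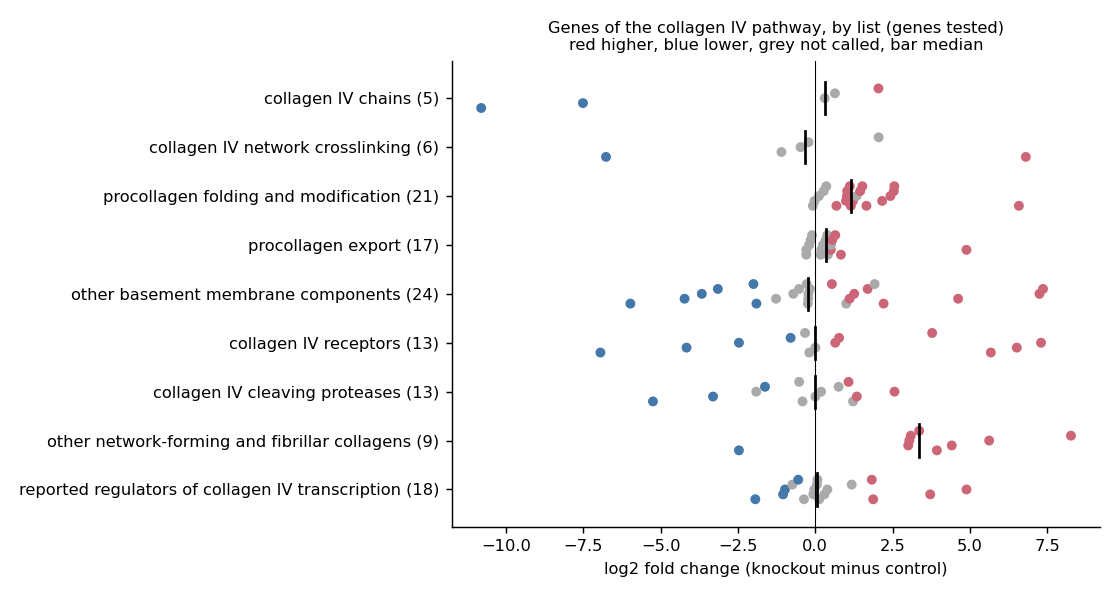
Log2 fold change of knockout minus control (x axis) for each tested gene of the collagen IV pathway lists (y axis, number tested in brackets); red points were called higher, blue lower and grey not called, and the bar is the median. In the folding and modification list 15 of 21 points are red and 0 blue; the fitted values of genes with no or few counts in a group, such as Col4a3 and Lox, depend on the prior count.

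Of 21 proteases that can cut collagen IV or act on its turnover, 13 were tested; 3 were higher, 3 lower and 7 not called, so that 46.2% were called beside 35.7% of all genes tested. Adam10 rose 2.54-fold, from 83 ± 1.87 to 211 ± 30.5 CPM. Plau, the urokinase that activates plasminogen, fell 9.91-fold, from 126 ± 33.5 to 12.7 ± 6.46 CPM. Mmp24, a membrane-type metalloproteinase, fell 38.1-fold from 4.31 CPM (adjusted p = 0.00292 by edgeR), and the ratio was 147 (26.1 to 5814) without knockout library 2. Mmp2, whose product is the gelatinase known for cutting collagen IV, stayed under 1 CPM in every library, and Mmp9, at 3.18, 0.638 and 1.34 CPM in control and 0.762, 0.294 and 0.306 CPM in knockout, was not called (log2 fold change -1.91, adjusted p = 0.0819 by edgeR). DESeq2 (adjusted p = 0.0454) and the fit with the replicate block (0.0427) called Mmp9 lower. The number higher was 1 without control library 2 or control library 3, and without knockout library 3 there were 5 higher and 5 lower; DESeq2 also called 5 lower.

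Of 14 fibrillar and other network-forming collagens, 9 were tested. Of these, 8 were higher and 1 lower, so that 100% were called beside 35.7% of all genes tested. Without control library 2, control library 3 or knockout library 2, or with the replicate block, 6 were higher. Col3a1 and Col11a1, both chains of fibrillar collagens, rose 309-fold and 15.3-fold, and Col1a1 was at 2.99 ± 2.01 CPM in control against 146 ± 45.2 CPM in knockout (SD, n = 3 each). Col1a1 and Col3a1 also belong to the fibroblast markers given above. Col8a1, a network-forming collagen and the lower member, was at 174, 172 and 182 CPM in control against 43.4, 36.7 and 15.1 CPM in knockout. In the 5 that were not tested the highest level in any library was 2.15 CPM.

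Of 20 regulators reported for collagen IV genes, 18 were tested; 4 were higher, 4 lower and 10 not called, with a median of 0.0613; 44.4% were called, beside 35.7% of all genes tested. Lmx1b, a LIM homeodomain factor known to act on Col4a3 and Col4a4 in podocytes, was at 0.795, 0.393 and 0.85 CPM in control against 18.8, 15.4 and 26.5 CPM in knockout, the libraries in which Col4a3 was at 0 (adjusted p = 0.000522 by edgeR). Its part in the levels of Col4a3 and Col4a4 was not tested. Foxd1 rose 3.55-fold, from 7.62 ± 0.458 to 27.1 ± 2.12 CPM, and Foxc2 fell 3.84-fold (adjusted p = 0.00217 by edgeR). Of the podocyte markers, Nphs1 and Wt1 stayed under 1 CPM in every library; Podxl, Synpo and Magi2, which many other cells express, were higher in knockout, but each call was lost when single libraries were left out: Podxl without any 1 of the control libraries (adjusted p = 0.0532 to 0.0723 by edgeR), Synpo without control library 2 or 3 or knockout library 2 or 3 (0.0714 to 0.0978) and Magi2 without control library 3 (0.0608). Synpo was also lost with the replicate block (adjusted p = 0.0564 by edgeR). The number lower was 2 without control library 1, control library 3 or knockout library 2.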

How the data were processed

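The authors deposited whole-number counts per gene symbol. Per the submitters' processing notes, STAR 2.7.1a, featureCounts and hg38 were used, with no roles stated. Of the annotation, the strand setting and any filter nothing is stated, and overlapping or antisense genes may share counts. In control library 1, 1704 genes had 0 but counts in other libraries; their rows held only multiples of 11 and were divided by 11. The members and lists were chosen with earlier results of these data known. The test was edgeR's robust quasi-likelihood test (version 4.0.16, under R 4.3.3), with TMM scaling, the filterByExpr filter, an adjusted p threshold of 0.05 and no replicate block; log2 CPM for correlations used a prior count of 2. DESeq2 1.42.0 and limma 3.58.1 (voom) were alternatives. The code was tested on simulated data. Totals were 16158516 to 21294330 counts; intervals and floors cover counting error only. Coding lengths came from GENCODE 29 (human, longest per gene). Text names all chains, up to 3 called genes per list by smallest p, 3 neighbours a side and the 3 most correlated genes per chain. Serpinh1, Pxdn, Loxl2, Itgb1, Mmp2, Mmp9 and Col8a1 were named outside this rule, after their values were seen. Some genes that the rule or lists hold are not reported here.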

Additional observations from a re-analysis of the deposited data

How the results depend on the processing

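Each fold change was refitted under 15 alternatives: RLE and upper quartile scaling, no filter, a stricter filter, DESeq2, limma-voom, counts as deposited, the table without the divided rows, the replicate block, and each library left out. The calls of Col4a3, Col4a4 and Col4a5 held under each of them. For Col4a3 and Col4a4, with hardly any counts in knockout, this was nearly fixed in advance. Leaving out single libraries gave log2 fold changes of -8.74 to -6.90 for Col4a4 and 1.83 to 2.23 for Col4a5; for Col4a3, at 0 in knockout, the lower bound was 139-fold to 236-fold. Col4a1 (-0.00505 to 0.87) and Col4a2 (-0.30 to 0.57) turned in sign without knockout library 3; neither was called in any of the fits. Same-numbered libraries had deviations correlated at -0.0487, 0.256 and 0.0219. Differently numbered libraries were not compared, so these values cannot show whether the numbers pair the libraries. With the replicate block the values were 0.47 and 0.15 for Col4a1 and Col4a2 and 2.04 for Col4a5, and the number of genes called fell from 4392 to 3591. That number was 2312 to 6021 with 1 library left out. Without scaling by coding length, the control mean of the Col4a1 to Col4a2 ratio was 1.21, by construction; leaving out 1 library, chosen after seeing the data, kept it at 1.23 to 1.25. Col4a6 gave a value only without the filter (log2 -1.31, adjusted p = 0.534 by edgeR) and as deposited (-1.68, 0.48). Depth limits Col4a6 and the knockout levels of Col4a3 and Col4a4, which rest on 0 to 3 counts per library.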
